A study of Mus musculus with 93 samples.

Results

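The transcripts of the BCL2 family of survival and death genes were measured in leukocyte preparations of peripheral blood from mice with advanced mammary tumors and from tumor-free mice. The family was set by name as 10 genes, Bcl2, Bcl2l1, Mcl1, Bax, Bak1, Bcl2l11, Bid, Bad, Bbc3 and Bmf, each read on Affymetrix mouse arrays from probe sets annotated with that gene symbol alone. Of the 10, 9 had such a probe set, and Bax was not analysed here. The 9 genes had 31 probe sets among the 45037 tested, and each gene was read by its brightest probe set, the one with the highest mean over all 93 arrays, which gave 18193 genes over the whole array. The other probe sets of each gene stand beside it below.

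The tumor arrays were of MMTV/c-MYC transgenic females on the FVB/NJ background, which per the study's methods carried the c-MYC oncogene or a more stable variant of it under the mammary-directed, hormone-responsive MMTV promoter and were bred continuously. Neither the transgenic line nor the variant behind an array is given in the sources read here. The 28 control arrays were of wild type, tumor-free FVB/NJ females matched for age and parity. The series gives an average age of 431 days at euthanasia. Blood was drawn from the cheek, red cells were lysed and RNA came from the leukocyte pellet. Platelet and erythroid markers were read on the arrays as well, at levels given below. The tumor arrays were divided by the number in their label. The late-numbered set held 52 arrays, numbers 6 to 32 of the training cohort (27 arrays) and 9 to 33 of the validation cohort (25 arrays). The early-numbered set held 13 arrays, numbers 1 to 5 of the training cohort (5 arrays) and 1 to 8 of the validation cohort (8 arrays). Controls numbered 14 in each cohort. The labels name no animals, so p-values measure the spread between arrays.

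Proteins of the BCL2 family decide whether the outer mitochondrial membrane stays intact. The guardians BCL2, BCL-XL and MCL1 hold the pore-forming effectors BAX and BAK in check, and BH3-only proteins such as BIM, BID, PUMA, BAD and BMF bind the guardians, and in some cases the effectors themselves, in response to stress or loss of growth factors. Blood cells differ in the guardian they depend on, with MCL1 needed by neutrophils, BCL2 by resting lymphocytes and BCL-XL by maturing red cells and platelets.

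The members that differed most between late-numbered and early-numbered tumor arrays were Bid and Bbc3. Both were higher in late-numbered and lower in early-numbered arrays than in controls. On their brightest probe sets Bak1 and Bad differed more from controls in late-numbered than in early-numbered arrays. A dimmer probe set of each was lower in early-numbered arrays than in controls. Bcl2 was the guardian lowered in both tumor sets. The promoters of Bid, Bbc3 and Bcl2 are shown for orientation, 5′ to 3′ on the gene's strand. Each is given as the 150 bases before the RefSeq transcript start in mouse build GRCm38.p6. Capitals mark matches on either strand to the GC box GGGCGG, the CRE core TGACG and the PU.1 core GAGGAA. The Bid promoter lies at chr6:120916825-120916974 and that of Bcl2 at chr1:106714291-106714440, both on the minus strand. That of Bbc3 lies at chr7:16309433-16309582 on the plus strand, the most upstream of its 3 promoter windows. The annotated Bbc3 gene begins further upstream, at chr7:16308398.
Bid: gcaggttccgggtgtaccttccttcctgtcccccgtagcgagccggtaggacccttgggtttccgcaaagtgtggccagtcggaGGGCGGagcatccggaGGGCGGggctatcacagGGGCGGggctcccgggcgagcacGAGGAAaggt
Bbc3: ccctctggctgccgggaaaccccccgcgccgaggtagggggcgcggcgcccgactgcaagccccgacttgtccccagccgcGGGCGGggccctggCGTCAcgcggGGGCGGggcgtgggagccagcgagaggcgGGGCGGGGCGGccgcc
Bcl2: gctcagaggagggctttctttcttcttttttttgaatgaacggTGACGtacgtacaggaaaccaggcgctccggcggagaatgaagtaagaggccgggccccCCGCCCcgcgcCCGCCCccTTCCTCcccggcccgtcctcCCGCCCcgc
In the 250 bases before these starts the GC box matched 3 times in Bid, 5 times in Bbc3 and 7 times in Bcl2, counting overlapping matches, and it occurred in 32.7% of 32851 windows of that length. The PU.1 core, in 23.3% of windows, matched once each in Bid and Bcl2, and the CRE core, in 17.8%, once each in Bbc3 and Bcl2. The E-box CACGTG, in 6.02% of windows, matched in none of these 3 windows. Another annotated start of Bbc3, with its window at chr7:16310181-16310430, had 1 E-box match and 7 GC box matches.

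Late-numbered and early-numbered arrays also stood apart in control probe sets. The bacterial spike-in dap read 6.47 to 10.5 in late-numbered arrays, 2.39 to 4.58 in early-numbered arrays and 2.3 to 3.84 in controls on the log2 scale. The actin 5′ minus 3′ difference, a sign of RNA integrity, ran from -2.3 to -0.4 in late-numbered arrays, from -2 to -1.2 in early-numbered arrays and from -0.9 to -0.5 in controls. Its mean was -0.54 in late-numbered arrays, -1.42 in early-numbered arrays and -0.64 in controls. The -2.3 was on array 22 of the training late-numbered tumors. Late-numbered tumors thus shared no dap value with controls or with early-numbered tumors, and early-numbered tumors shared no actin difference with controls. Dap and tumor status cannot be told apart in late-numbered tumors minus controls. The actin difference and tumor status cannot be told apart in early-numbered tumors minus controls. Nor can dap and tumor set be told apart in late-numbered minus early-numbered arrays. Both tumor sets were compared with the same 28 controls. Median correlation of an array with its set fell under 0.95 on 5 arrays. Array 19 of the validation late-numbered tumors had the lowest, 0.910, and the others were array 9 of that group, arrays 2 and 6 of the validation and array 4 of the training early-numbered tumors.

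On the log2 scale, 5 of the 9 members, Bak1, Bid, Bad, Bbc3 and Bmf, were higher in late-numbered tumor arrays than in controls, and Bcl2 was lower. Over all 18193 genes, 25.6% were called higher and 20.5% lower in that comparison (limma, adjusted p under 0.05). The median difference was 0.39 over the members and 0.040 over all genes. In early-numbered arrays only Bmf was called higher, against 34.3% of all genes, and 4 members, Bcl2, Bcl2l11, Bid and Bbc3, were lower, against 29% of all genes. The median difference there was -0.064 over the members and 0.071 over all genes. Between the tumor sets, 5 members, Bak1, Bcl2l11, Bid, Bad and Bbc3, were higher in late-numbered arrays, against 31.5% of all genes, and 0 were lower by limma, at adjusted p under 0.05, against 38.3%, with 0 also lower at an unadjusted p under 0.05. With the 5 arrays left out that stood apart, the counts were 5 higher and 1 lower for late-numbered tumors, and 2 higher and 4 lower for early-numbered tumors.

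**Figure D1:**
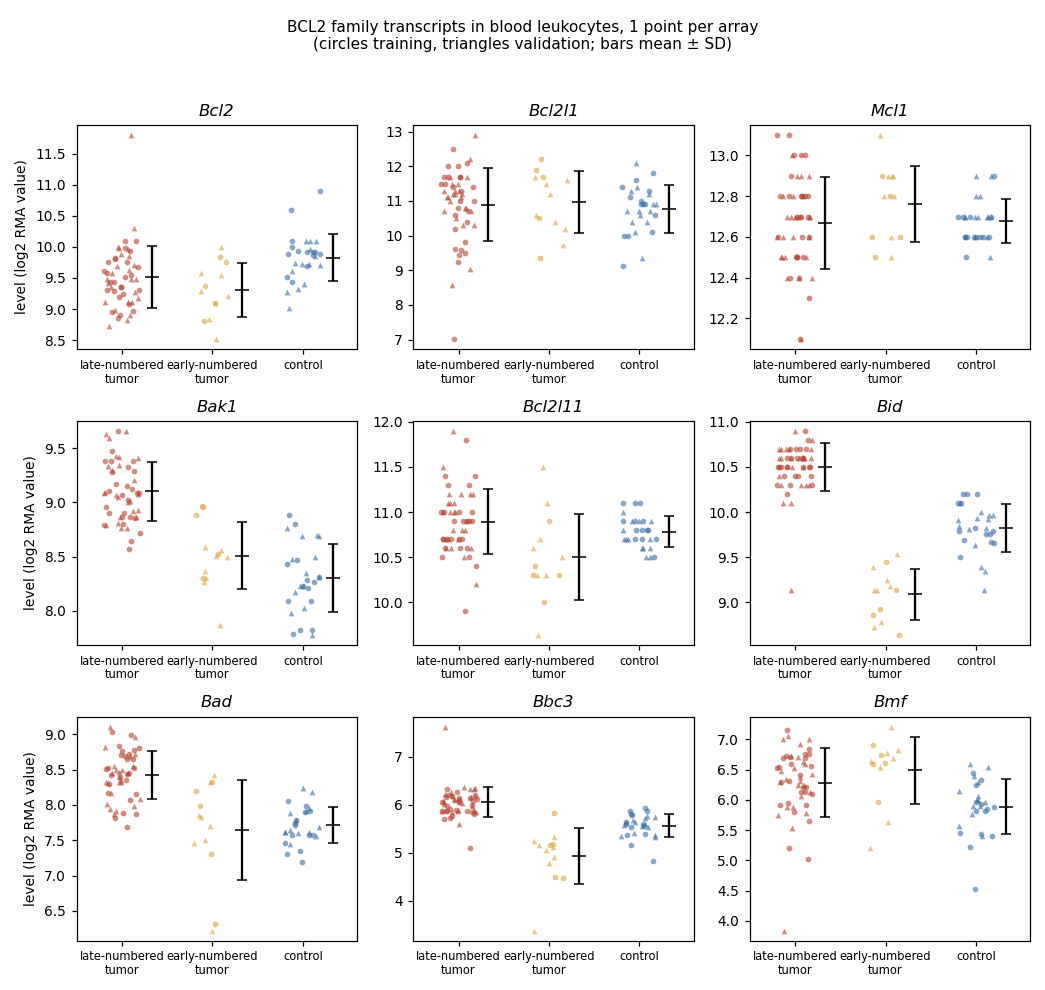
Log2 level (RMA value) of the brightest probe set of the 9 measured members, 1 point per array, in late-numbered tumor (n = 52), early-numbered tumor (n = 13) and control (n = 28) arrays; bars give mean and SD. Of the late-numbered arrays, 48 of 52 have Bid above the highest control, and all 13 early-numbered arrays have it below the control mean, 5 of them below the lowest control.

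**Figure D2:**
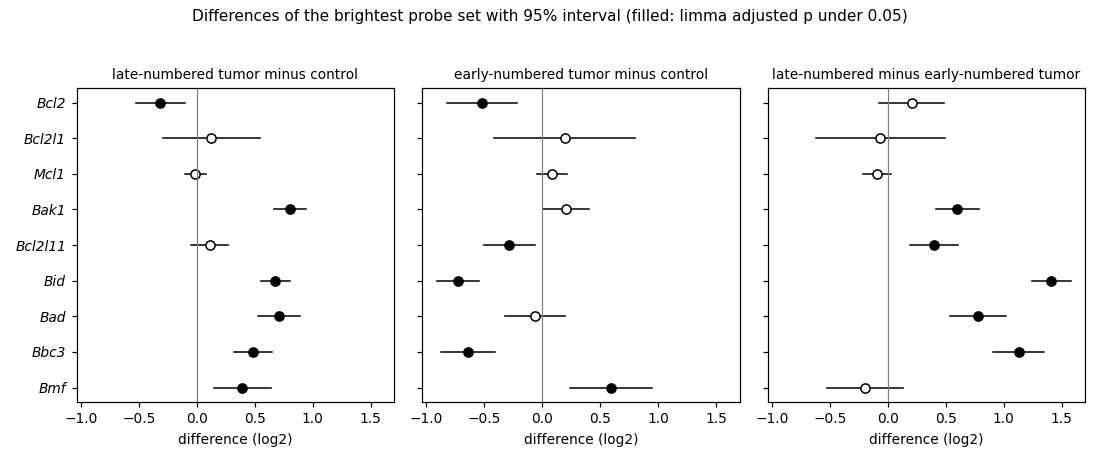
Difference of each member in log2 units with its 95% interval (limma), for late-numbered tumor minus control, early-numbered tumor minus control and late-numbered minus early-numbered tumor. Filled points passed an adjusted p under 0.05.

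Among the guardians, Bcl2, which shields lymphocytes from death, was the member that fell in both tumor sets. Its level ran from 8.73 through a median of 9.48 to 11.8 in late-numbered arrays, from 8.52 through 9.29 to 10.0 in early-numbered arrays and from 9.01 through 9.88 to 10.9 in controls. Of the late-numbered arrays, 41 of 52 lay below the control mean, as did 11 of 13 early-numbered arrays, and the ranges overlapped widely. The difference from controls was -0.32 ± 0.11 (SE, limma adjusted p = 0.0105), or 1.24-fold lower, in late-numbered arrays and -0.52 ± 0.15 (adjusted p = 0.00219), 1.43-fold lower, in early-numbered arrays. The late-numbered minus early-numbered difference was 0.20 with a 95% interval of -0.075 to 0.48. In the training cohort alone the late-numbered difference was -0.49, and in the validation cohort it was -0.13 (limma adjusted p = 0.637), so the validation arrays alone did not call it. The early-numbered difference was -0.60 in the training cohort (limma adjusted p = 0.00818) and -0.43 in the validation cohort (adjusted p = 0.12), where it likewise missed the threshold. Of the 5 Bcl2 probe sets, 3 were called lower in late-numbered and 4 in early-numbered arrays and 0 higher. The second brightest, 1440770_at, gave -0.77 in late-numbered and -0.45 in early-numbered arrays. With 3 components of the control probe sets as covariates the late-numbered difference was 0.76 (limma adjusted p = 0.183), and with the actin difference as a covariate the early-numbered one was -0.49 (limma adjusted p = 0.0632).

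Bcl2l1, which encodes BCL-XL, varied more between arrays than it differed between sets. It ran from 7.02 through a median of 11.1 to 12.9 in late-numbered arrays, from 9.35 through 11.2 to 12.2 in early-numbered arrays and from 9.11 through 10.9 to 12.1 in controls. The groups overlapped over nearly their whole ranges. The lowest late-numbered value, 7.02, was on array 22 of the training cohort. The difference from controls was 0.13 (95% interval -0.29 to 0.55) in late-numbered arrays and 0.19 (-0.41 to 0.80) in early-numbered arrays, and 0 of its 4 probe sets was called in any comparison by limma, with 2 at an unadjusted p under 0.05 in early-numbered arrays and 0 elsewhere. With the actin difference as a covariate the early-numbered difference became 2.03 (limma adjusted p = 2.94e-06), and that fit rests on actin values that the early-numbered arrays do not share with controls.

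Mcl1, the short-lived guardian of neutrophils and many other cells, was called in no comparison on its brightest probe set, with 0 at an unadjusted p under 0.05 by limma. Levels ran from 12.1 through 12.7 to 13.1 in late-numbered arrays, from 12.5 through 12.8 to 13.1 in early-numbered arrays and from 12.5 through 12.7 to 12.9 in controls. Values from 10 up carry steps of 0.1, which is coarse beside these differences. The difference from controls was -0.011 (95% interval -0.10 to 0.080) in late-numbered and 0.082 (-0.048 to 0.21) in early-numbered arrays. With arrays centred on their medians the early-numbered difference was 0.16 (limma adjusted p = 0.0476), and with components of the control probe sets as covariates 0.25 (adjusted p = 0.00231). The dimmest of 6 Mcl1 probe sets, 1448503_at, rose by 0.57 ± 0.081 (SE) in early-numbered arrays (limma adjusted p = 3.12e-09) and did not pass in late-numbered arrays, where it was 0.11 (95% interval -0.0018 to 0.22). It ran from 10.8 through 11.75 to 12.3 in late-numbered arrays, from 11.9 through 12.1 to 12.6 in early-numbered arrays and from 11.3 through 11.6 to 11.9 in controls, and 11 of 13 early-numbered arrays exceeded all controls. Over the 6 probe sets, 3 were called higher in early-numbered arrays and 0 lower. In late-numbered minus early-numbered tumor arrays 4 of the 6 were called lower, with differences of -0.46 to -0.14, while the brightest was -0.093 (limma adjusted p = 0.167), so the reading depends on the probe set.

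Of the pore-forming effectors, Bak1 rose in late-numbered arrays. It ran from 8.57 through 9.08 to 9.66 in late-numbered arrays, from 7.87 through 8.51 to 8.97 in early-numbered arrays and from 7.78 through 8.28 to 8.88 in controls. All 52 late-numbered arrays lay above the control mean and 38 of them above the highest control. The difference from controls was 0.80 ± 0.070 (SE, limma adjusted p = 7.32e-18), or 1.74-fold, in late-numbered arrays and 0.21 ± 0.10 (adjusted p = 0.067) in early-numbered arrays, and late-numbered exceeded early-numbered arrays by 0.60 ± 0.093 (adjusted p = 2.59e-08). Early-numbered arrays gave 0.48 in the training (limma adjusted p = 0.00963) and 0.021 in the validation cohort (adjusted p = 0.909). Their difference also passed the threshold with arrays centred on their medians (0.28, limma adjusted p = 0.014), quantile-normalized once more (0.35, adjusted p = 0.00215) and with the 5 arrays left out that stood apart (0.25, adjusted p = 0.0312). It passed too without any one of array 6 of the validation early-numbered tumors, arrays 1 and 5 of the training controls or arrays 2, 3, 6 and 11 of the validation controls (0.22 to 0.26). The dim probe set 1425716_s_at went the same way in late-numbered arrays, 0.82, but was 0.97 lower in early-numbered arrays (limma adjusted p = 3.88e-07), opposite to the brightest probe set, so the direction of Bak1 in early-numbered arrays is not settled by its probe sets.

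Bid, the BH3-only protein that caspase-8 cleaves to carry death receptor signals to mitochondria, had the largest difference between the tumor sets among the 9 members. Its level ran from 9.13 through a median of 10.55 to 10.9 in late-numbered arrays, from 8.64 through 9.13 to 9.53 in early-numbered arrays and from 9.13 through 9.82 to 10.2 in controls. Of the late-numbered arrays, 48 of 52 lay above the highest control. All 13 early-numbered arrays lay below the control mean and 5 below the lowest control. The lowest late-numbered value, 9.13, was on array 19 of the validation cohort, and the other 51 read at least 10.1. Bid was higher by 0.68 ± 0.064 in late-numbered arrays (SE, limma adjusted p = 2.66e-16), or 1.60-fold, and lower by 0.73 ± 0.091 in early-numbered arrays (adjusted p = 7.15e-11), or 1.66-fold. Late-numbered exceeded early-numbered arrays by 1.41 ± 0.085 (adjusted p = 6.8e-28), or 2.66-fold. The training and validation cohorts gave 0.65 and 0.71 for late-numbered and -0.87 and -0.63 for early-numbered arrays. The probe set 1448560_at gave 0.84 and -1.11, and the dim probe set 1447873_x_at did not pass in any comparison. With components of the control probe sets as covariates the late-numbered difference was -0.061 (limma adjusted p = 0.883) and that between the tumor sets 0.38 (adjusted p = 0.267).

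Bbc3, which encodes the p53-responsive BH3-only protein PUMA and had a single probe set, was likewise higher in late-numbered and lower in early-numbered arrays than in controls. That probe set was dim, with a mean of 5.75 over all arrays. In early-numbered arrays its mean was 4.94, where the median of all probe sets on an array averaged 4.71. No other probe set of Bbc3 stands beside it. It ran from 5.11 through 6.07 to 7.63 in late-numbered arrays, from 3.38 through 5.13 to 5.83 in early-numbered arrays and from 4.83 through 5.60 to 5.93 in controls. In late-numbered arrays 33 of 52 exceeded the highest control, and 12 of 13 early-numbered arrays lay below the control mean. The difference from controls was 0.49 ± 0.082 (SE, limma adjusted p = 3.7e-07) in late-numbered and -0.64 ± 0.12 (adjusted p = 2.41e-06) in early-numbered arrays. Late-numbered exceeded early-numbered arrays by 1.13 ± 0.11 (adjusted p = 5.93e-16). The highest late-numbered value, 7.63, was again on array 19 of the validation cohort, and the other late-numbered arrays reached 6.37.

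Bad, a BH3-only protein that growth factor signalling holds inactive by phosphorylation, rose in late-numbered arrays. It ran from 7.69 through 8.45 to 9.11 in late-numbered arrays, from 6.22 through 7.83 to 8.42 in early-numbered arrays and from 7.19 through 7.67 to 8.24 in controls. The late-numbered difference was 0.71 ± 0.092 (SE, limma adjusted p = 1.4e-10), 38 of 52 arrays exceeding the highest control. Early-numbered arrays had an SD of 0.708, against 0.255 in controls, and their difference of -0.064 (95% interval -0.33 to 0.20) turned positive with arrays centred on their medians (0.00992) or quantile-normalized once more (0.12). The other Bad probe set, 1416583_at, gave 0.69 in late-numbered and -0.35 in early-numbered arrays (limma adjusted p = 0.0268). With components of the control probe sets as covariates the late-numbered difference of Bad was 0.31 (limma adjusted p = 0.57). Late-numbered exceeded early-numbered arrays by 0.78 ± 0.12 (SE, limma adjusted p = 3.62e-08), and with those covariates by 0.13 (adjusted p = 0.834).

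Bmf, a BH3-only protein tied to the cytoskeleton through dynein light chain, was the member called higher in both tumor sets. It ran from 3.84 through 6.33 to 7.16 in late-numbered arrays, from 5.20 through 6.65 to 7.21 in early-numbered arrays and from 4.53 through 5.91 to 6.60 in controls. The differences from controls were 0.39 ± 0.12 (SE, limma adjusted p = 0.00643) and 0.59 ± 0.18 (adjusted p = 0.00284), and 43 of 52 late-numbered and 11 of 13 early-numbered arrays lay above the control mean. In the validation cohort alone they were 0.23 and 0.40, and both missed the threshold. With components of the control probe sets as covariates the late-numbered difference of Bmf was 0.090 (limma adjusted p = 0.924). The probe set 1458325_x_at was lower by 0.27 in late-numbered arrays (limma adjusted p = 0.00275), opposite to the brightest, and stood at 0.041 in early-numbered arrays. With the actin difference as a covariate the early-numbered difference was 0.26 (limma adjusted p = 0.424), and the mean of its probe sets gave 0.067 in late-numbered arrays (limma adjusted p = 0.439). The lowest late-numbered value, 3.84, was on array 19 of the validation cohort.

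Bcl2l11, which encodes BIM, the BH3-only protein that trims the leukocyte pool, differed between probe sets. On its brightest probe set it ran from 9.9 through 10.9 to 11.9 in late-numbered arrays, from 9.64 through 10.4 to 11.5 in early-numbered arrays and from 10.5 through 10.8 to 11.1 in controls. It was 0.11 (95% interval -0.045 to 0.27) in late-numbered arrays and lower by 0.28 ± 0.11 in early-numbered arrays (SE, limma adjusted p = 0.0241). Without array 4 of the training or array 2 of the validation early-numbered tumors it was -0.24 (limma adjusted p = 0.0641) and -0.21 (adjusted p = 0.0939), and 9 of 14 other settings ended the call. Late-numbered exceeded early-numbered arrays by 0.39 ± 0.10 (SE, limma adjusted p = 0.000613), and with the actin difference as a covariate by 0.14 (adjusted p = 0.509). The next probe set, 1456005_a_at, gave -0.38 in late-numbered and 0.35 in early-numbered arrays, the reverse of the dim probe sets 1435449_at (0.42 and -0.75) and 1426334_a_at (0.59 and -0.79). The probe set 1456006_at was higher by 0.79 in late-numbered arrays (limma adjusted p = 2.7e-12) and stood at 0.27 in early-numbered arrays (adjusted p = 0.064). Of the 5 probe sets, 3 were called higher and 1 lower in late-numbered arrays, and 1 higher and 3 lower in early-numbered arrays.

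**Figure D3:**
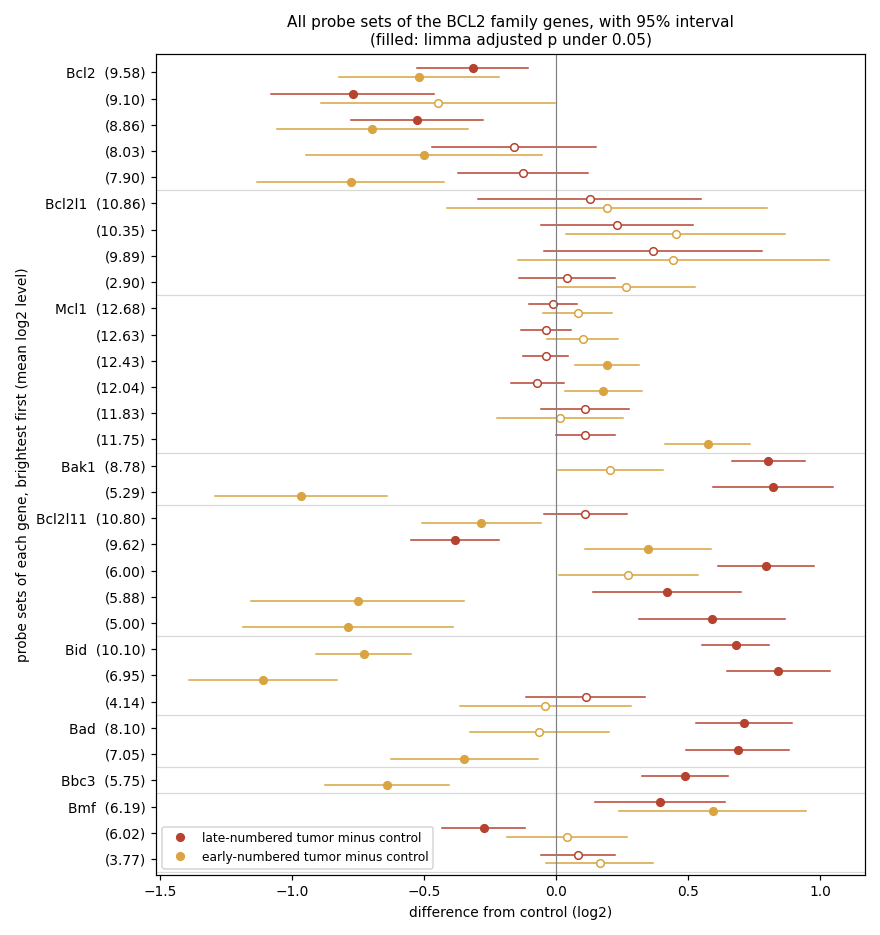
Difference from controls in log2 units with 95% interval for all 31 probe sets of the members, brightest first within each gene, in late-numbered (red) and early-numbered (yellow) tumor arrays. Called probe sets of Bcl2l11 lie on both sides of 0 in each tumor set and those of Bmf in late-numbered arrays, while those of Bid, Bad and Bcl2 lie on a single side within each set.

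Over the 31 probe sets, 11 were called higher and 5 lower in late-numbered arrays, where 23.9% of all 45037 probe sets were called higher and 19.9% lower. In early-numbered arrays 5 were called higher and 12 lower, against 37.9% and 24.6% of all probe sets. In late-numbered minus early-numbered tumor arrays 12 were called higher and 6 lower, against 27% and 41%. Of 27 tests of whether a member's difference changed between cohorts, 0 were called by the limma interaction, with 2 at an unadjusted p under 0.05. Both were of Bak1, at 0.025 for early-numbered tumor minus control (adjusted p = 0.321) and 0.0246 for late-numbered minus early-numbered tumor (adjusted p = 0.269).

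Other family members, from a list of 16 of which 11 were measured, gave 2 higher and 2 lower in late-numbered arrays and 3 higher and 1 lower in early-numbered arrays. The guardian Bcl2l2 fell by 0.77 in late-numbered arrays and Bcl2l12 by 1.01 in early-numbered arrays, while Bnip3, a mitophagy gene, rose by 0.84 in late-numbered arrays and the BAK-related Bok by 0.55 in early-numbered arrays. Downstream of the mitochondrial pore, the apoptosome and caspase list (14 of 16 measured) had 0 higher and 11 lower in early-numbered arrays, with a median of -0.40, and 3 higher and 2 lower in late-numbered arrays. Endog, a mitochondrial nuclease, fell by 1.42 and the protease Htra2 by 0.89 in early-numbered arrays, and Cycs, cytochrome c, was 0.40 in late-numbered and -0.49 in early-numbered arrays. All genes had a median of 0.071 in early-numbered arrays.

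Among inhibitor of apoptosis genes (7 of 8 measured), 3 were higher and 1 lower in late-numbered, and 3 higher and 2 lower in early-numbered arrays, with Birc6 at -0.43 and 0.90 and Birc5, the survivin gene, at 1.08 in early-numbered arrays. Death receptor genes (9 of 10 measured) gave 3 higher and 2 lower in late-numbered arrays, led by Tnfrsf1a at 1.23 and Fas at 0.87, and 2 higher and 2 lower in early-numbered arrays, where Casp8, the protease that cleaves BID, fell by 0.75. Of regulators of the family (19 of 20 measured), 7 rose and 6 fell in late-numbered and 5 rose and 7 fell in early-numbered arrays, with Ddit3, the stress factor CHOP, at 0.87 and -1.07. p53 targets (12 of 12) gave 3 higher and 5 lower in late-numbered arrays, among them Sesn2 at 1.23, Cdkn1a at 0.59 and Ccng1 at -0.58, and 1 higher and 2 lower in early-numbered arrays. Each of these lists was described by counts only, and 25.6% and 20.5% of all genes were called higher and lower in late-numbered arrays, and 34.3% and 29% in early-numbered arrays.

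Blood is a mixture, and fewer cells of a type and less RNA per cell cannot be told apart here. B cell markers fell in both tumor sets, 8 of 9 measured lower in each, with medians of -0.94 and -1.13, and their mean ran from 6.24 to 9.70 in late-numbered, from 6.77 to 9.19 in early-numbered and from 8.27 to 9.99 in control arrays. T cell markers were lower in 6 of 9 with 1 higher in late-numbered arrays and in 7 of 9 in early-numbered arrays, and their mean ran from 8.48 to 10.76, from 8.48 to 9.78 and from 9.22 to 10.71 in the 3 sets. Neutrophil markers were higher in 5 of 8 and monocyte markers in 6 of 9 in late-numbered arrays, with medians of 0.58 and 0.62. In early-numbered arrays neutrophil markers had 1 higher and 1 lower and monocyte markers 2 higher and 1 lower. Natural killer and cytotoxic cell markers were lower in 2 of 9 with 1 higher in late-numbered arrays (median -0.22) and lower in 7 of 9 in early-numbered arrays (median -0.61). Plasma cell markers were lower in 5 of 8 with 1 higher in late-numbered arrays (median -0.77) and lower in 2 of 8 in early-numbered arrays (median -0.099). Erythroid markers were higher in 1 of 7 in late-numbered and 3 of 7 in early-numbered arrays. Their mean ran from 7.07 to 10.72 in late-numbered, from 7.54 to 9.97 in early-numbered and from 7.83 to 9.76 in control arrays. Of 10 platelet markers, 1 was higher and 1 lower in late-numbered and 3 were lower in early-numbered arrays. The platelet mean ran from 8.39 to 13.23, from 11.85 to 12.48 and from 11.99 to 12.81 in the 3 sets. Platelet and erythroid transcripts were thus read beside those of leukocytes. Mammary epithelium markers stayed dim, with means of 3.64 to 5.22, 3.60 to 4.83 and 3.50 to 4.29. Over all genes, 25.6% were called higher and 20.5% lower in late-numbered arrays, and 34.3% and 29% in early-numbered arrays (limma, adjusted p under 0.05). Marker counts near these shares were not read as a shift of a cell type.

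Several members varied with these marker means among arrays of the same set, and 243 such relations were computed, with p-values from permutation tests adjusted over them. Bcl2 followed T cell markers, with Pearson's r of 0.75 in late-numbered arrays (n = 52, adjusted p = 0.00027, Spearman's rho 0.76, adjusted p = 0.000486), 0.84 in early-numbered arrays (n = 13, adjusted p = 0.00914, rho 0.76, adjusted p = 0.0341) and 0.69 in controls (n = 28, adjusted p = 0.000648, rho 0.76, adjusted p = 0.00081). Without the 2 arrays farthest out it was 0.75, 0.79 and 0.65. Bcl2 was thus lower where T cell markers were lower within each set, and the part of cell shares in its fall was not tested.

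Bcl2l1 followed erythroid markers in late-numbered arrays (r 0.72, adjusted p = 0.00027, rho 0.77, adjusted p = 0.000486, permutation) and in controls (r 0.82, adjusted p = 0.00027, rho 0.83, adjusted p = 0.000486), with r of 0.64 and 0.78 without the 2 farthest arrays. Early-numbered arrays gave r 0.53 (adjusted p = 0.0358) and rho 0.50 (adjusted p = 0.197, permutation), and 0.40 without 2 arrays. Mcl1 followed neutrophil markers in late-numbered arrays (r 0.65, adjusted p = 0.00027, rho 0.68, adjusted p = 0.000486, and 0.71 without 2 arrays) and in early-numbered arrays (r 0.92, adjusted p = 0.001, rho 0.93, adjusted p = 0.000972, and 0.87 without 2 arrays, permutation). In controls r was 0.20 (adjusted p = 0.485) and rho 0.11 (adjusted p = 0.739).

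Bmf followed monocyte markers in late-numbered arrays (r 0.78, adjusted p = 0.00027, rho 0.54, adjusted p = 0.000972, permutation, and 0.60 without 2 arrays) and in controls (r 0.77, adjusted p = 0.00027, rho 0.71, adjusted p = 0.000972, and 0.66 without 2 arrays), and in early-numbered arrays r was 0.47 (adjusted p = 0.255) and rho 0.31 (adjusted p = 0.461). Bad ran against natural killer and cytotoxic cell markers in late-numbered arrays (r -0.59, adjusted p = 0.000442, rho -0.57, adjusted p = 0.000911, permutation, and -0.58 without 2 arrays), while r was 0.014 in early-numbered arrays (adjusted p = 0.978, rho 0.14, adjusted p = 0.784) and -0.35 in controls (adjusted p = 0.166, rho -0.25, adjusted p = 0.394). Bad also followed neutrophil markers in late-numbered arrays (r 0.56, adjusted p = 0.000521, rho 0.53, adjusted p = 0.00135, permutation, and 0.48 without 2 arrays). Early-numbered arrays gave Bad and neutrophil markers r 0.70 (adjusted p = 0.0558) and rho 0.73 (adjusted p = 0.0589, permutation), and neither passed. Bcl2l11 ran against erythroid markers in late-numbered arrays (r -0.58, adjusted p = 0.00027, rho -0.54, adjusted p = 0.000972, permutation, and -0.48 without 2 arrays). In early-numbered arrays r was -0.71 (adjusted p = 0.0771) and rho -0.64 (adjusted p = 0.0886, permutation), and neither passed. In late-numbered arrays Bcl2l11 also ran against platelet markers (r -0.57, adjusted p = 0.000442, rho -0.55, adjusted p = 0.000972, permutation, and -0.52 without 2 arrays). The dim mammary epithelium markers gave r -0.50 (adjusted p = 0.00347) and rho -0.55 (adjusted p = 0.000911, permutation) there. By rank both were slightly stronger than erythroid markers. For Bak1 the strongest list by Pearson's r in late-numbered arrays was B cells, with r -0.40 (adjusted p = 0.0241) and rho -0.37 (adjusted p = 0.0552, permutation) and r of -0.41 without 2 arrays. Early-numbered arrays gave Bak1 and B cell markers r -0.13 (adjusted p = 0.846, permutation). Without 2 arrays that r turned to 0.58 (adjusted p = 0.23, permutation). By rank, monocyte markers were stronger for Bak1 in late-numbered arrays (rho 0.43, adjusted p = 0.0188, r 0.065, adjusted p = 0.816, permutation, and 0.40 without 2 arrays). In controls Bak1 followed monocyte markers with r 0.83 (adjusted p = 0.00027, rho 0.85, adjusted p = 0.000486, permutation, and 0.82 without 2 arrays), and in early-numbered arrays r was 0.54 (adjusted p = 0.166) and rho 0.46 (adjusted p = 0.311).

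For Bbc3 the strongest list by Pearson's r in late-numbered arrays was monocytes, with r -0.56 (adjusted p = 0.0683), rho -0.063 (adjusted p = 0.783, permutation) and r of -0.038 without 2 arrays. In controls the sign was the opposite, with r 0.54 (adjusted p = 0.0314), rho 0.34 (adjusted p = 0.217, permutation) and r of 0.43 without 2 arrays. Early-numbered arrays gave Bbc3 and monocyte markers r -0.23 (adjusted p = 0.619, permutation). With natural killer and cytotoxic cell markers Bbc3 gave r 0.54 in late-numbered arrays (adjusted p = 0.00914), but rho was 0.29 (adjusted p = 0.128, permutation). Without the 2 farthest arrays r was 0.30 (adjusted p = 0.141), so the call rests on those arrays, while the sign stayed. The training cohort gave r 0.41 (adjusted p = 0.17) and the validation cohort 0.65 (adjusted p = 0.0621, permutation). Bid followed monocyte markers in late-numbered arrays with r 0.66 (adjusted p = 0.0198), but rho was 0.21 (adjusted p = 0.306, permutation) and r without the 2 farthest arrays 0.14, so that relation rests on those arrays. In the training cohort it was -0.011 and in the validation cohort 0.82.

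**Figure D4:**
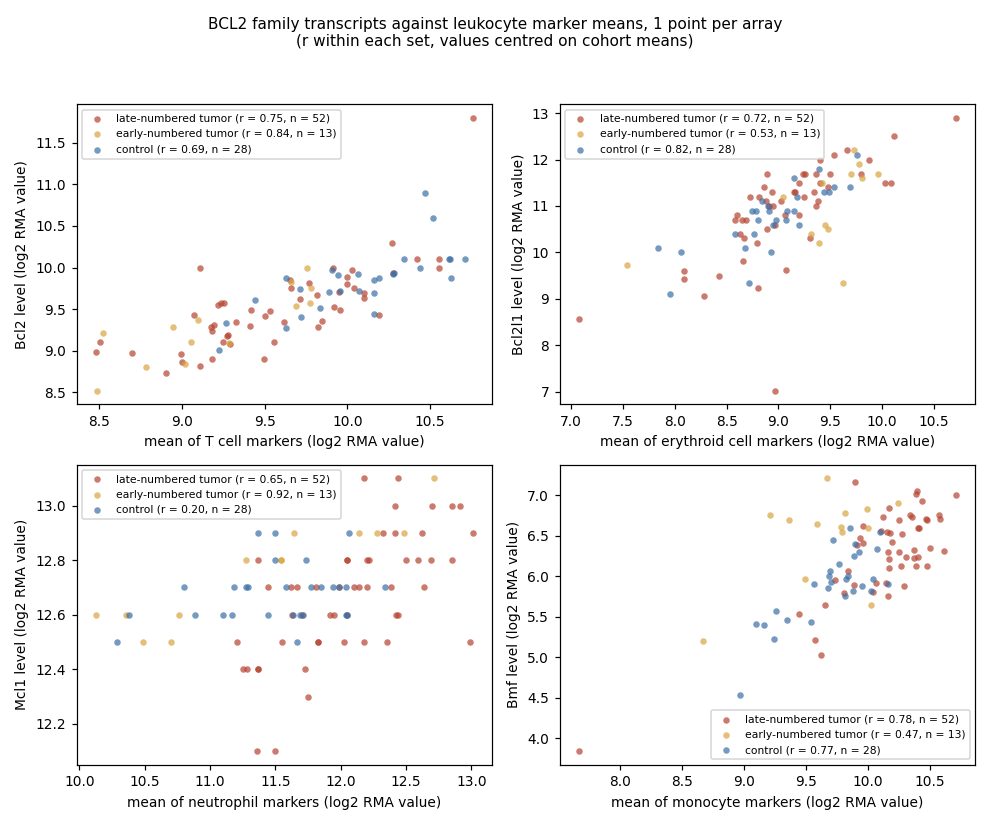
Log2 level of Bcl2, Bcl2l1, Mcl1 and Bmf (y axis) against the mean log2 level of T cell, erythroid, neutrophil and monocyte markers (x axis), 1 point per array, coloured by set. The isolated late-numbered point at upper right for Bcl2 and at lower left for Bmf is array 19 of the validation cohort.

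Genes whose levels ran most like a member's over the 93 arrays, after removing the mean of each set in each cohort, are given as a description without a test. For Bcl2 these were Txk (r 0.87), Gramd3 (0.87) and Rras2 (0.87), for Bcl2l1 Dcun1d1 (0.90), for Mcl1 Tbc1d15 (0.81), for Bcl2l11 Casc3 (0.84) and for Bmf Plxnb2 (0.78) and Irf5 (0.77). For Bid it was Pilra (0.76), for Bad Scand1 (0.79), and for Bak1 and Bbc3, whose closest genes were the least alike, Aifm2 (0.67) and Coasy (0.68).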

How the data were processed

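Log2 expression values of 93 Affymetrix mouse arrays were deposited by the authors. Per the labels they were made with RMA, which corrects background, quantile-normalizes and summarises the probes of a set. The RMA version is not given in the sources read here, nor is it said whether the study's standardization on components of control probe sets is part of the values. RNA had been amplified with the NuGEN Ovation system. Values lay between 1.23 and 14.9, in steps of 0.01 below 10 and 0.1 from 10 on, where 8.17% lay. Arrays hold no counts, so their number limits the precision.

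The 45101 probe sets include 64 controls. Of the 45037 tested, 34945 carried a single symbol in the platform annotation. The 3 sets of arrays were fitted together by limma 3.58.1 under R 4.3.3 (lmFit, eBayes with trend, two-sided, cohort as covariate, Benjamini-Hochberg over all tested probe sets, adjusted p under 0.05). The steps were tested on simulated data. Named genes were the members, up to 6 called genes with the largest difference per pathway list, of which examples are printed, the 3 closest genes per member, and the marker list most related to each member in late-numbered arrays. Correlations used 100000 permutations within cohort. Motifs were matched in RefSeq promoter windows. Alternatives covered cohorts, controls, scaling, filters, covariates, a replicate block and left-out arrays. Members and lists were chosen with earlier results of these data known. Of 170 list genes, 151 were measured, the others not analysed here.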

Additional observations from a re-analysis of the deposited data

Results flagged for a closer look

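In 18 groups of a member and an early-numbered tumor group, 3 held a value far from the others, while chance would flag about 1 in 20. Bak1 read 7.87 on array 6 of the validation early-numbered tumors, Bad 6.22 on array 7 and Bbc3 3.38 on array 2. Bid and Bbc3 differed between the tumor sets in opposite directions from controls, the late-numbered minus early-numbered difference being 1.41 for Bid and 1.13 for Bbc3 in the test of that difference (limma). What lies behind these values was not tested.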

How the results depend on the processing

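Of 360 member differences under other settings, 299 kept their direction and side of the threshold, and of 2511 with 1 array left out, 2495 did. Bak1 and Bbc3 in late-numbered and Bid and Bbc3 in early-numbered tumors kept their calls under all 14 alternatives. The cause of a change was not tested.

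Directions reversed as follows. Mcl1 in late-numbered tumors was 0.050 in training arrays, 0.024 against training controls, 0.021 with array weights, 0.060 with 3 components of the control probe sets as covariates, 0.036 with the replicate block, 0.0096 as the mean of its probe sets and 0.0061 without the 5 arrays that stood apart (chosen after seeing the data), and -0.020 to 0.00054 with 1 array left out. Mcl1 late-numbered minus early-numbered was 0.013 in training arrays. Bcl2l1 late-numbered minus early-numbered was 0.13 in validation arrays and -0.20 to 0.050 with 1 array left out. Bad in early-numbered tumors was 0.00992 with centred arrays, 0.12 after quantile normalization, 0.18 with the components and -0.13 to 0.054 with 1 array left out. The components turned Bcl2 to 0.76, Bcl2l1 to -0.85 and Bid to -0.061 in late-numbered tumors and Bcl2l1 to -0.66 in early-numbered tumors. The actin covariate turned Bcl2l1 to -0.12 in late-numbered tumors and Bmf late-numbered minus early-numbered to 0.18, which the replicate block put at 0.070. Bak1 as the mean of its probe sets was -0.38 in early-numbered tumors. The Bid correlation with monocyte markers was -0.011 in training arrays.

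Counts of members called that moved by over 1.5 times were as follows. Higher in early-numbered tumors (1): 2 in training arrays, 0 in validation arrays, 3 with centred arrays, 2 after quantile normalization, 2 with the components, 0 with the replicate block, 2 with the mean of probe sets, 2 without the 5 arrays, and 1 to 2 with 1 array left out. Lower in late-numbered tumors (1): 0 in validation arrays, 0 against validation controls and 0 with the components. Higher in late-numbered tumors (5): 3 with the components. Lower in early-numbered tumors (4): 2 in validation arrays and 2 with the actin covariate. Lower between tumor sets (0): 1 in validation arrays, 1 centred, 1 after quantile normalization, 1 with the actin covariate and 2 with the mean of probe sets. Smaller moves were not listed, such as 4 higher between tumor sets (5) with the components and with the actin covariate. Correlations of the deviations of same-numbered arrays ran from -0.468 to 0.521. They were not set against those of differently numbered arrays, so whether same-numbered arrays pair was not tested. The labels name no shared animal, and the replicate block joins arrays by their number alone. The median of all probe sets lay at 0.12 as deposited, 0.19 centred and 0.035 after quantile normalization in early-numbered tumors.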

Other observations

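Array 19 of the validation late-numbered tumors, singled out after its values were seen, held the highest Bcl2 of the late-numbered arrays (11.8, the others up to 10.3), the highest Bcl2l11 (11.9, the others up to 11.8) and Bbc3 (7.63, the others up to 6.37), and the lowest Bid (9.13, the others from 10.1) and Bmf (3.84, the others from 5.03). Its mean of natural killer and cytotoxic cell markers was 10.65, above the 7.03 to 9.47 of the other late-numbered arrays, and its T cell mean of 10.76 lay above their 8.48 to 10.56. Monocyte markers (7.67, the others 9.44 to 10.71), platelet markers (8.39, the others 11.38 to 13.23) and B cell markers (6.24, the others 6.72 to 9.70) were lowest there.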
